A study of Mus musculus with 6 samples.

Results

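The histone genes of the table, replication-dependent and variant, were chosen by gene symbol and made up 66 of the 17920 genes listed. The patterns took symbols that begin with H2ac, H2bc, H3c or H4c and a digit, with Hist1h to Hist4h, with H1f, H2af or H2az, and with H3f3. No count or fold change entered the choice, but the family was proposed with earlier results of the same comparison known, so the calls below describe these genes and are not independent support for a change in them. By class, 55 members were replication-dependent genes, namely 5 of H1, 15 of H2A, 15 of H2B, 11 of H3 and 9 of H4, and 11 were variant or replacement genes.

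The series measured RNA of mouse embryonic brain cells after loss of Ybx1, a Y-box protein that reads the m5C mark on RNA. The 3 control libraries (WT) carry the genotype label WT and the 3 knockdown libraries the label KD. All 6 are labelled brain at E13.5, and the series text speaks of deletion in cortex, whereas the study's methods describe dissociated E13.5 cortical cells infected in culture with lentivirus that carried a short hairpin RNA against Ybx1 or a control hairpin, followed by puromycin. Both groups therefore share dissociation, infection and drug selection, and the hairpin was not limited to 1 cell type.

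Histones package DNA into nucleosomes. Each nucleosome core holds H2A, H2B, H3 and H4, and H1 binds the linker DNA between cores. Replication-dependent histone genes lie in clusters, mostly lack introns and are transcribed in S phase. Their mRNAs end in a conserved stem loop in place of a poly(A) tail, and the stem-loop binding protein SLBP controls their processing, translation and decay. Variant or replacement genes, such as H3f3a and H3f3b for H3.3 or H2afz for H2A.Z, lie outside the clusters, yield polyadenylated mRNA and are expressed throughout the cell cycle and in cells that have stopped dividing. The libraries were made from purified mRNA, and how it was purified was not given in the sources used here. A purification by the poly(A) tail would under-sample histone mRNA without one.

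The stem loops are shown first, as the element in which tailless histone mRNA ends. Their presence in a model did not sort the members, since some models held both a stem loop and a poly(A) signal and some held neither. Some models without a stem loop were short, such as 312 bases for H4c12 and 381 for H2bc13. A short model may stop before the stem loop, so its lack there is not its lack in the mRNA. A stem loop was searched as a 6-base stem beginning GG, a 4-base loop beginning TT and a fully paired second arm, 16 bases in all. It was present in the GENCODE M21 transcript models of 37 of the 55 replication-dependent members and of 1 of the 11 variant members, H2afx, the H2A.X gene of the DNA damage response. Among all 58797 protein-coding transcript models it was found in 0.354%. The 30 bases around it, 24 for Hist1h2ap, are printed from the GRCm38 transcripts for the members that were tested and for H4c9, the most counted H4 gene, with the stem loop in capitals. They lie at chr13:23739507-23739536 (plus strand) for H1f2, chr3:96246027-96246056 (plus) for H2ac18, chr13:21810893-21810922 (plus) for Hist1h2ao, chr13:21833026-21833049 (minus) for Hist1h2ap, chr3:96238476-96238505 (minus) for H3c15, chr13:22040957-22040986 (minus) for H4c9 and chr9:44335235-44335264 (plus) for H2afx.
H1f2: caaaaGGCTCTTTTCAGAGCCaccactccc
H2ac18: aaaaaGGCTCTTTTCAGAGCCacccactga
Hist1h2ao: aaaaaGGCTCTTTTCAGAGCCatccacagt
Hist1h2ap: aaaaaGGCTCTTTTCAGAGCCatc
H3c15: acaaaGGCTCTTTTCAGAGCCaccacagct
H4c9: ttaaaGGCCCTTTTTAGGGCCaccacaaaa
H2afx: acaaaGGCCCTTTTAAGGGCCaccacctcc
The stem loop of the first 5 lines, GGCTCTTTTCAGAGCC, occurred in 23 members and was the most frequent of the 7 forms found. H4c9 and H2afx carried other forms of it. No stem loop was found in the models of H2bc21 and H2bc4, the H2B genes with the most counts.

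Some replication-dependent models carried the signal for a poly(A) tail. AATAAA or ATTAAA stood in the last 50 bases of a model of 10 of the 55 replication-dependent members, of 9 of the 11 variant members and of 50.2% of all protein-coding models. Of the 10 replication-dependent members, 7 also had a stem loop, and 18 of the 55 had none in their models. The last 30 bases are shown for H1f2, whose model ran 840 bases past the stem loop to chr13:23740338-23740367 (plus strand), for H2bc21, whose model ended at chr3:96223709-96223738 (plus), and for the variant H3f3a, which ended at chr1:180800832-180800861 (minus), with the signal in capitals.
H1f2: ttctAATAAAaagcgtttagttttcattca
H2bc21: ttattattAATAAAgttaccgattagtttc
H3f3a: tgaaaaatAATAAAagtaccaatagaagaa
The replication-dependent members with such a signal had a median of 18.5 estimated counts over the 6 libraries, and the 45 without it a median of 4.21. H2bc21 had the most, 992. Members without a signal at the annotated end were also counted, with 625.9 for Hist1h2ap, 619.8 for H2bc4 and 388.0 for H2ac18. The 45 without a signal summed to 2146 counts and the 10 with it to 1370. Of the 7 replication-dependent members tested, 5 had no such signal.

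The depth was even, and 1 replicate pair stood apart. The 6 libraries held 16294635 to 16497505 estimated counts, and 1 count equalled about 0.06 CPM (counts per 1e6 counts of a library). Ybx1 had 10189, 9963 and 10484 counts in WT and 1635, 1511 and 2620 in KD (log2 fold change -2.43, SE 0.18, edgeR adjusted P = 1.8e-04). The Y-linked genes Eif2s3y, Ddx3y, Kdm5d and Uty summed to 14.1 counts in WT replicate 2 and 36 in KD replicate 2, against 1218 to 1899 in the other 4 libraries. Each count of calls, for the members and for the gene lists described after them, is therefore also given without both replicate 2 libraries, in a fit of 2 libraries a group. Markers of radial glia, intermediate progenitors, neurons, interneurons and the oligodendrocyte lineage were present in every library. The interneuron list summed to 644 to 984 CPM in WT and 672 to 1010 CPM in KD. The oligodendrocyte lineage list summed to 365 to 508 CPM in WT and 314 to 411 CPM in KD. The summed level of the microglial, endothelial, fibroblast and erythroid lists did not exceed 5.54 CPM in any library.

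Variant genes carried most of the TPM of the 66 members in these mRNA libraries. On the TPM scale, which corrects for transcript length, the 11 variant and replacement members summed to 2958 ± 31.7 TPM in WT and 3893 ± 146 TPM in KD (SD, n = 3 each). The 55 replication-dependent members summed to 171 ± 13.8 TPM in WT and 272 ± 25.5 TPM in KD. Their share of the TPM of all 66 members lay between 5.01% and 6.88% in the 6 libraries. Histone genes outside the symbol patterns, such as H2aw and Macroh2a1, entered neither this share nor those by family. By family, replication-dependent genes gave 14.0% to 20.0% of H2A TPM, 2.17% to 6.31% of H1 TPM and 0.362% to 0.534% of H3 TPM. The replication-dependent share of H1 TPM was 3.04 ± 0.91% in WT and 5.70 ± 0.66% in KD, and its ranges in the 2 groups did not overlap.

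**Figure D1:**
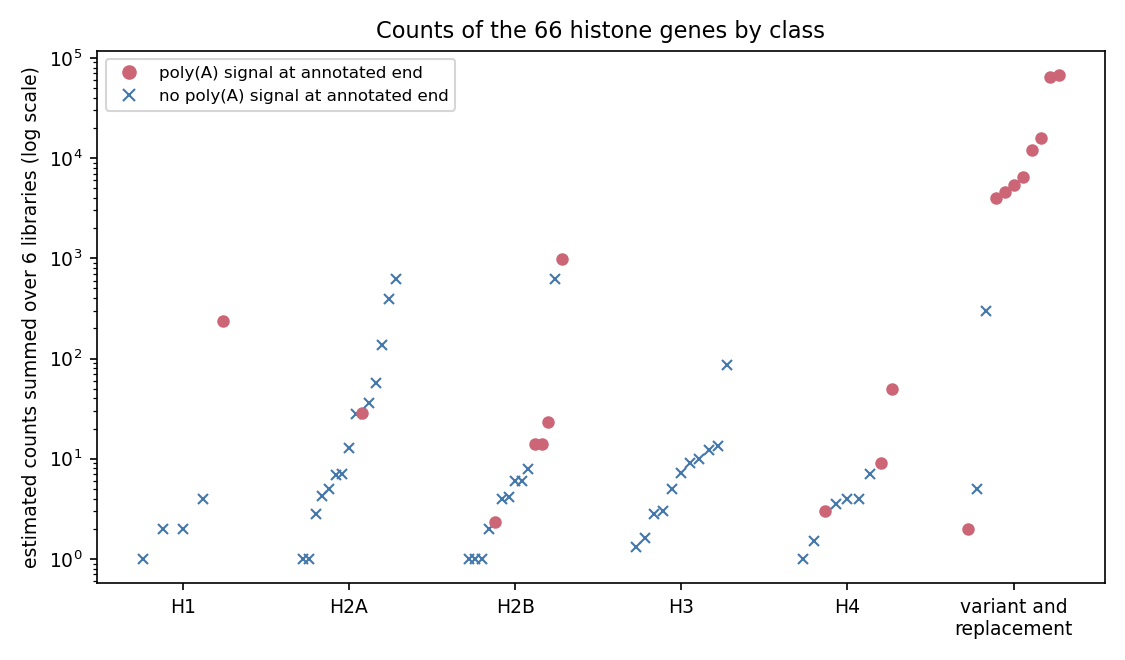
Each point is 1 of the 66 histone genes, placed by class along the horizontal axis and by its estimated counts summed over the 6 libraries on a logarithmic vertical axis. Filled circles have a poly(A) signal at the annotated end and crosses do not. The most counted replication-dependent gene, H2bc21, has 992, whereas the median of the variant genes is 5379.

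Most of the replication-dependent genes were too low to test. Genes were tested where at least 3 libraries reached the count minimum of 10 scaled to depth, and 16 members passed, 7 replication-dependent and 9 variant. Of the 50 not tested, 48 were replication-dependent and had 1 to 56.9 counts over all 6 libraries, with a median of 4.17. They were H1f1, H1f3, H1f4 and H1f5, H2ac4, H2ac6, H2ac7, H2ac8, H2ac10, H2ac11, H2ac12, H2ac13, H2ac15, H2ac19, H2ac20 and H2ac21, H2bc3, H2bc6, H2bc7, H2bc8, H2bc9, H2bc11, H2bc12, H2bc13, H2bc14, H2bc15, Hist1h2bp, Hist1h2bq and Hist1h2br, H3c1, H3c2, H3c3, H3c4, H3c6, H3c7, H3c8, H3c10, H3c11 and H3c13, and H4c2, H4c3, H4c4, H4c9, H4c11, H4c12, H4c14, Hist1h4m and Hist1h4n. The other 2 were H1f8, the oocyte linker histone, with 2 counts, and H2afb3, an H2A.B gene of the testis, with 5. The 48 replication-dependent genes together had 59.7, 63.1 and 61.3 counts in WT and 87.2, 73.5 and 88.9 in KD, so the 2 groups of this sum did not overlap. H2ac11 had the most, with 9.75, 9.47 and 7.92 counts in WT and 11.1, 8.67 and 9.96 in KD, which overlapped. H4c9, the best covered H4 gene, had 5, 7 and 10 counts in WT and 11, 9 and 8 in KD, and no H4 gene was tested.

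Of the 16 members tested, 9 were higher in KD, 1 was lower and 6 did not pass an adjusted P of 0.05 (edgeR quasi-likelihood test, Benjamini-Hochberg adjustment over the 13669 genes tested). Among all genes tested, 24% were called, 12% higher and 11.9% lower. KD lay above WT in every library for 11 members, below for 1, and the groups overlapped for 4, and KD lay above WT for 21% of all genes tested. Without both replicate 2 libraries, 3 members in place of 9 were called higher and H2afj lost its call, and the calls over all genes went from 1646 higher and 1631 lower to 135 and 93. In that reduced set, H2bc4, H3f3a and H3f3b kept their calls and all 16 members kept their sign. Members that pass a count filter may pass through the group in which they are high, so these counts describe the tested members and not the family. H3c15 and Hist1h2ao reached the minimum in all 3 KD libraries but in 2 of the 3 WT libraries.

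H2bc4 had the largest log2 fold change of the 16 members tested. H2bc4 (chr13:23684199-23692908, plus strand), a gene of the chromosome 13 cluster with a spliced model of 2 exons, had 40, 51 and 51.0 counts in WT and 141, 183 and 154 in KD. Every KD library was more than 2 times as high as any WT library. The level went from 2.92 ± 0.42 CPM to 9.66 ± 1.37 CPM (mean ± SD, n = 3 each), and the log2 fold change was 1.73 (SE 0.17, edgeR adjusted P = 4.8e-04). The log2 difference between libraries of the same number was 1.76, 1.79 and 1.53. This call held in each of the 17 alternatives run. Of the 50-base stretches of its models 30.1% also occurred in other genes, and its counts were whole numbers in 2 of the 6 libraries.

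H2bc21 (chr3:96221119-96223738, plus strand) is the H2B gene of the chromosome 3 cluster, whose models hold no stem loop and end with the poly(A) signal shown above. Its counts were 104, 107 and 128 in WT and 230, 196 and 227 in KD. All KD libraries lay above all WT libraries. The log2 fold change was 0.92 (SE 0.13, edgeR adjusted P = 0.00189), from 6.96 ± 0.89 to 13.2 ± 1.06 CPM. No 50-base stretch of it occurred in another gene and its counts were whole in all 6 libraries, so it did not depend on how reads were divided. All 15 H2B members together had 153, 168 and 194 counts in WT and 386, 397 and 400 in KD, most of them from these 2 genes.

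H1f2 (chr13:23738808-23740367, plus strand) encodes a linker histone and was the only replication-dependent H1 gene tested. It had 22, 17 and 28 counts in WT and 53, 54 and 60 in KD, again without overlap. The log2 fold change was 1.29 (SE 0.22, edgeR adjusted P = 0.00419), from 1.38 ± 0.35 to 3.37 ± 0.24 CPM. H1f1, H1f3, H1f4 and H1f5 had at most 4 counts each over the 6 libraries, although the stem loop of H1f3 and H1f4 is the same as that of H1f2. Without both replicate 2 libraries H1f2 kept its direction, at 1.14, but not its call (edgeR adjusted P = 0.0778).

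H3c15 (chr3:96238108-96239127, minus strand) was the only replication-dependent H3 gene tested. Its counts were 10.8, 10 and 9 in WT and 18, 16.6 and 22 in KD. The groups did not overlap, and the log2 fold change was 0.89 (SE 0.28, edgeR adjusted P = 0.0449). At this depth the call rested on few reads and was lost in 9 of the 16 alternatives that gave a value, among them DESeq2 (adjusted P = 0.233) and every fit that left out a single library (edgeR adjusted P = 0.0821 to 0.131).

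The 3 H2A genes tested were not past the threshold in the main fit, which did not pair the libraries. Hist1h2ap (chr13:21833026-21833507, minus strand), now named H2ac24, had the highest TPM of the replication-dependent members. Its estimated counts were 103, 85.1 and 99.4 in WT and 154, 63.3 and 122 in KD, so that KD replicate 2 lay below every WT library. The log2 fold change was 0.22 (SE 0.27, edgeR adjusted P = 0.602) and turned to -0.07 without KD replicate 1. Hist1h2ao (H2ac23, chr13:21810465-21810944, plus strand) had 24.5, 8.81 and 11.3 counts in WT and 32.6, 29.1 and 29.9 in KD, with WT replicate 1 nearest to the KD libraries. Its log2 fold change was 1.04 (SE 0.34, edgeR adjusted P = 0.0525, and 0.0108 with the replicate block).

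H2ac18 (chr3:96245497-96246082, plus strand) had 62, 43.0 and 49 counts in WT and 62.7, 88.6 and 82.8 in KD. The libraries of replicate 1 were nearly equal, with a log2 difference of 0.01 against 1.01 and 0.70 in the other pairs. The log2 fold change was 0.59 (SE 0.20, edgeR adjusted P = 0.0594, and 0.0277 with the replicate block). Of the 50-base stretches of these H2A genes 89.4% to 93.5% occurred in other genes, so their single values depend on how the authors' counting divided shared reads. Summed over all 15 H2A members, which share such reads, the counts were 216, 166 and 179 in WT and 288, 213 and 278 in KD. KD replicate 2 lay just below WT replicate 1, and the ratio of mean CPM was 1.37.

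Over the class, the replication-dependent members summed to 25.6 ± 1.74 CPM in WT and 45.7 ± 2.54 CPM in KD, 1.79 times as high. Without H2bc4, H2bc21 and H1f2, taken out after their values were seen, the sums were 14.3 ± 1.38 and 19.5 ± 2.69 CPM, 1.36 times as high. The 48 genes not tested summed to 3.78 ± 0.17 and 4.93 ± 0.52 CPM. H2bc4, H2bc21 and H1f2 thus held most of the difference in the class sum. The 7 genes tested had a median log2 fold change of 0.92, against -0.00 over all genes tested. They include H3c15 and Hist1h2ao, which reached the count minimum in fewer WT than KD libraries. With no filter the median of the class was 0.62. The values of the 7 thus describe these genes and not the class. The replicate block called 2539 of all genes higher and 2470 lower. With that block 6 of the 7 were called, and without both replicate 2 libraries 1 of 8 that then passed the filter. None of the 7 was called lower by edgeR or DESeq2, also at an unadjusted P of 0.05, where 0 were lower and 6 higher.

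**Figure D2:**
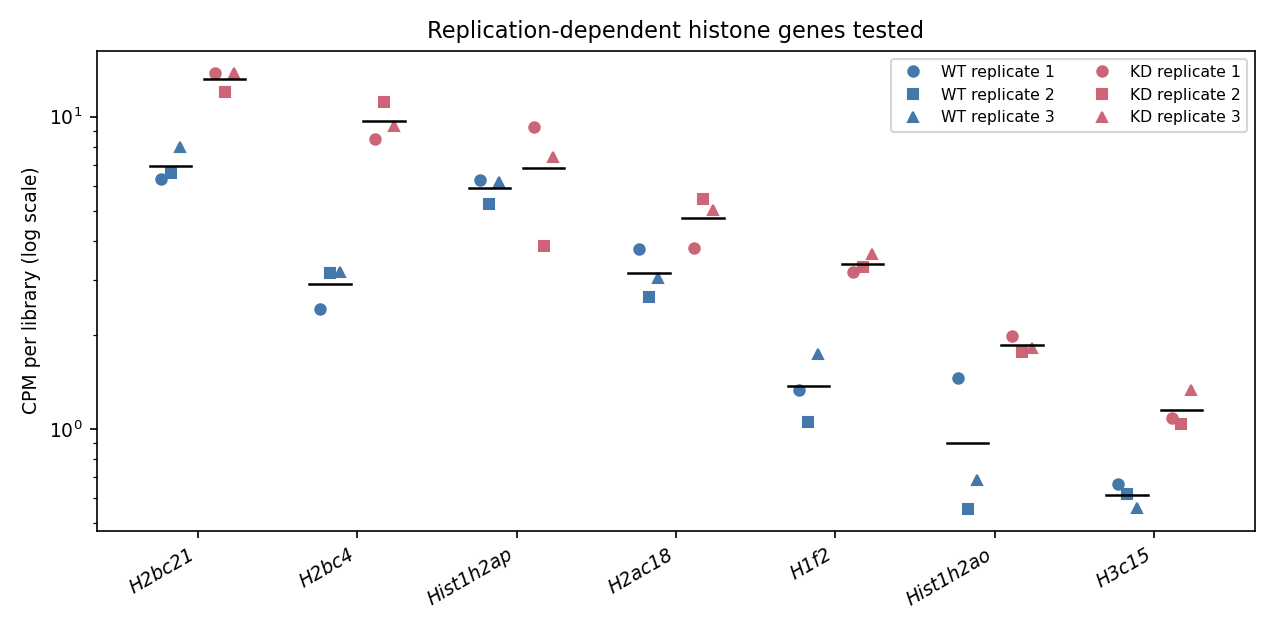
The 7 replication-dependent histone genes tested are shown by library, in CPM on a logarithmic axis, with WT in blue, KD in red, a symbol for each replicate number and a bar at the group mean. The groups are apart for every gene except Hist1h2ap, and for H2ac18 they touch, with WT replicate 1 at 3.76 and KD replicate 1 at 3.79 CPM.

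By position, 47 of the replication-dependent members lay in the cluster on chromosome 13 (chr13:21715763-23764406), of which 4 were tested and 2 were higher, and 8 on chromosome 3 (chr3:96219865-96269141), of which 3 were tested and 2 were higher. The 8 genes of chromosome 3 held 1515 counts over the 6 libraries and the 47 of chromosome 13 held 2001. Single-exon models only were given for all 8 and for 42 of the 47. Both clusters contributed called genes with all libraries (3 and 3 with the replicate block), but without both replicate 2 libraries edgeR called 1 gene on chromosome 13, H2bc4, and 0 on chromosome 3, where 2 were higher at an unadjusted P of 0.05.

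The replacement genes H3f3a and H3f3b had the highest TPM of the 66 members in these mRNA libraries. How far H3 mRNA without a poly(A) tail was under-sampled cannot be told from them. H3f3a (chr1:180800832-180813943, minus strand) and H3f3b (chr11:116021912-116027962, minus strand) encode the same protein, H3.3, which is deposited also outside S phase. H3f3a had 1398, 1429 and 1485 TPM in WT and 1906, 1881 and 1904 TPM in KD. H3f3b had 686, 649 and 693 TPM in WT and 1014, 902 and 967 TPM in KD. For both, every KD library lay above every WT library. The log2 fold change from the counts was 0.34 for H3f3a (SE 0.04, edgeR adjusted P = 0.00106) and 0.46 for H3f3b (SE 0.05, edgeR adjusted P = 9.8e-04), and both calls held in each of the 17 alternatives run. H3f3c, annotated as a processed pseudogene in GENCODE and as protein coding in RefSeq, had 42.1, 50.5 and 43.1 counts in WT and 55.7, 62.8 and 47.1 in KD. Its groups overlapped (log2 fold change 0.27, edgeR adjusted P = 0.299), and 73.8% of its 50-base stretches occurred in other genes.

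Both H2A.Z genes were higher. H2afz (H2az1, chr3:137864487-137866922, plus strand), whose product marks promoters and regulatory DNA, had 383, 381 and 340 TPM in WT and 524, 467 and 444 TPM in KD, without overlap. Its log2 fold change was 0.32 (SE 0.07, edgeR adjusted P = 0.0162). H2afv (H2az2, chr11:6427229-6444443, minus strand) had 62.5, 63.1 and 73.5 TPM in WT and 115, 93.8 and 90.4 TPM in KD. Its log2 fold change was 0.54 (SE 0.10, edgeR adjusted P = 0.0055), the largest among the variant members tested. In the library pairs it was 0.82, 0.49 and 0.29.

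The other H2A variants did not follow. H2afj (H2aj, chr6:136808244-136810074, plus strand), an H2A gene known from differentiated and senescent cells, had 676, 749 and 713 counts in WT and 603, 586 and 628 in KD. It was the only member called lower, with a log2 fold change of -0.26 (SE 0.06, edgeR adjusted P = 0.0203). Its adjusted P in the edgeR test was 0.0840 with WT replicate 2 left out, 0.0551 with KD replicate 1 left out and 0.0779 with KD replicate 2 left out. H2afx (chr9:44334694-44336077, plus strand), whose mRNA can end either at the stem loop shown above or with a poly(A) tail, had 1137, 1146 and 1090 counts in WT and 1141, 965 and 1006 in KD. Its groups overlapped, and its log2 fold change of -0.14 did not pass (SE 0.07, edgeR adjusted P = 0.152). With KD replicate 1 left out H2afx was called lower, at -0.21 (edgeR adjusted P = 0.0476).

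Of the linker histone variants, H1f0 (chr15:79028450-79030504, plus strand), known to accumulate in cells that leave the cycle, had 108, 105 and 104 TPM in WT and 158, 134 and 138 TPM in KD. Every KD library was above every WT library, and the log2 fold change was 0.38 (SE 0.07, edgeR adjusted P = 0.00475). H1f10 (chr6:87980421-87981637, minus strand) had 691, 769 and 646 counts in WT and 880, 678 and 889 in KD. KD replicate 2 fell within the WT range, and the log2 fold change of 0.19 did not pass (SE 0.11, edgeR adjusted P = 0.218). No 50-base stretch of H1f0 or H1f10 occurred in another gene. The 9 variant members tested had a median log2 fold change of 0.32, and without both replicate 2 libraries 2 of them were called higher.

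**Figure D3:**
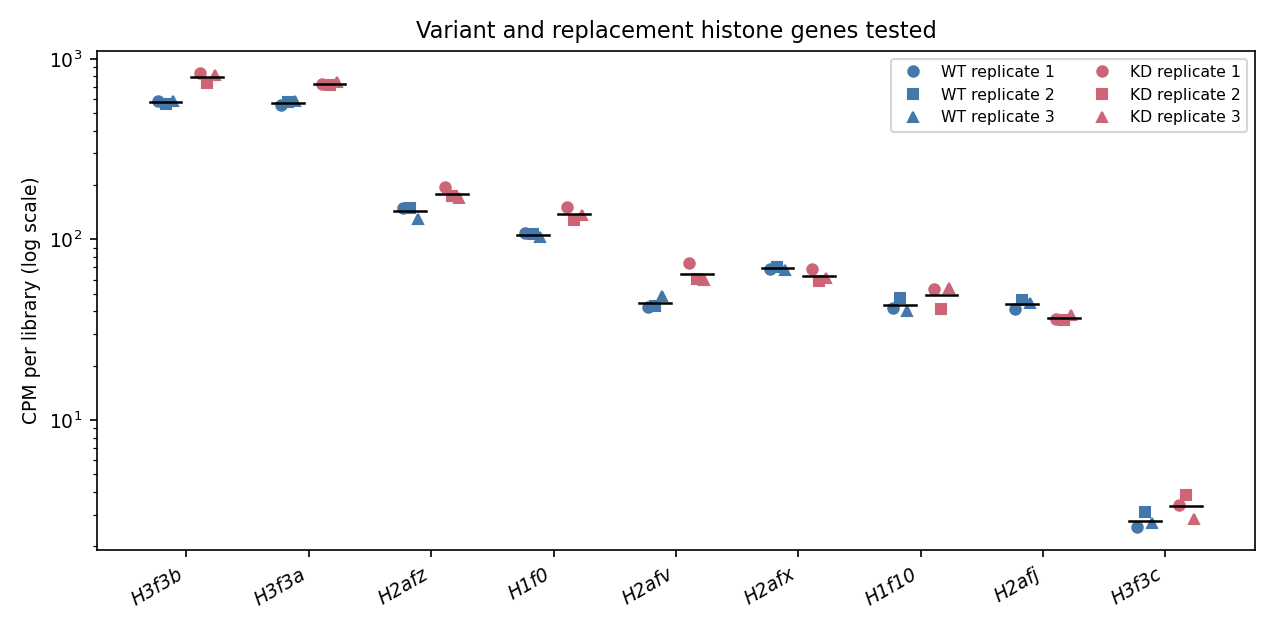
The 9 variant and replacement histone genes tested are shown by library in CPM on a logarithmic axis, with WT in blue, KD in red, a symbol for each replicate number and a bar at the group mean. H3f3b, H3f3a, H2afz, H1f0 and H2afv lie higher in all 3 KD libraries, H2afj lies lower in all 3, and the groups of H2afx, H1f10 and H3f3c overlap.

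**Figure D4:**
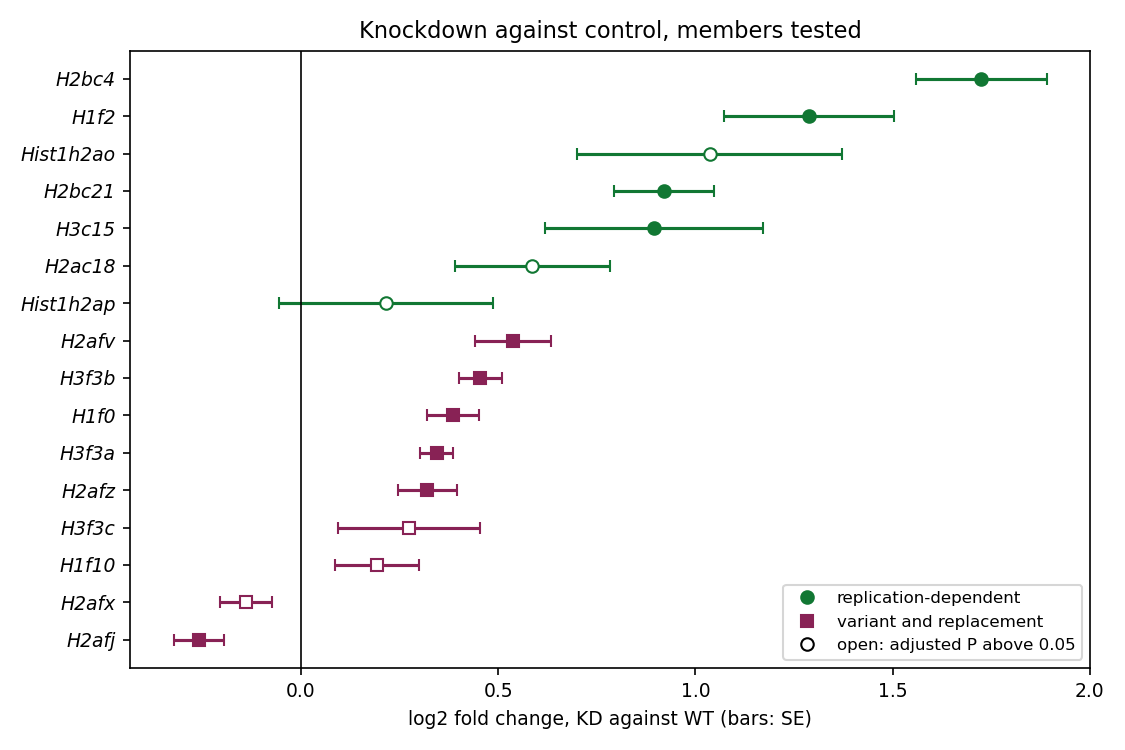
The log2 fold change of KD against WT is plotted for the 16 members tested, with bars for the SE, circles for replication-dependent and squares for variant genes, and open symbols where the adjusted P was above 0.05. Values run from 1.73 for H2bc4 to -0.26 for H2afj, with 14 of the 16 above 0.

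The promoters of the family share motifs that the choice by symbol did not use. In the RefSeq windows of GRCm38.p6, which run from 250 bases before to 50 after a start, CCAAT was present on either strand in 45 of 51 windows of 50 replication-dependent members, against 37.4% of all 32851 windows. It was in every window of the H1, H2A, H2B and H3 genes and in 2 of the 8 windows of H4 genes. TATAAA was in 29 of the 51 against 13.6% of all, and the octamer ATTTGCAT in 10 of the 51, 5 of H2A and 5 of H2B genes, against 1.74% of all. Windows of neighbouring H2A and H2B genes on opposite strands can overlap, as those of H2ac12 (chr13:22035594-22035893) and H2bc12 (chr13:22035571-22035870) do. A motif in such a shared stretch was counted for both genes, so the 51 windows are not separate promoters. None of these motifs contains another, and a match is a description of these letters only. H2bc21, H2bc4, H3c1, H3c7, H4c14 and H2afx had no entry. The windows are printed for H1f2 (chr13:23738557-23738856, plus strand) and for H3f3b (chr11:116024455-116024754, minus strand), a replication-dependent and a replacement gene that were both called higher, with these motifs in capitals.
H1f2: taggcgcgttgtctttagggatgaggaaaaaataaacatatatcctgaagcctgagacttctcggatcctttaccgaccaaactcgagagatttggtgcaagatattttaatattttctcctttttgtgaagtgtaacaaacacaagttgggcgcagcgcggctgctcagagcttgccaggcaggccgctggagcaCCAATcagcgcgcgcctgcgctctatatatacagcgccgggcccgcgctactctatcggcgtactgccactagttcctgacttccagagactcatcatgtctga
H3f3b: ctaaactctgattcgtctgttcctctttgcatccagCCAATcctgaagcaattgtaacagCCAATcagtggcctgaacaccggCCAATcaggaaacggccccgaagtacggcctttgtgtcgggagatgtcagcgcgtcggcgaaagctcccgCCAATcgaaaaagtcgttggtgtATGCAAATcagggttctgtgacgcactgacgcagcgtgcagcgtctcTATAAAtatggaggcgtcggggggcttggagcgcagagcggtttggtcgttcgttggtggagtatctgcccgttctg
The window of H1f2 held CCAAT a single time and neither other motif, whereas that of H3f3b held CCAAT 4 times, with TATAAA and the octamer.

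Genes that make, trim and degrade histone mRNA had smaller median changes than the 7 replication-dependent members tested. The median of those 7 was 0.92, and with no filter that of the class was 0.62, so the 7 do not stand for the class. Among all genes tested 12% were called higher and 11.9% lower. Of 8 genes for histone gene transcription, 2 were higher (edgeR adjusted P of 0.05), with a median log2 fold change of 0.14. These were Cdk2, the kinase that activates NPAT (log2 fold change 0.51, edgeR adjusted P = 0.0158), and Pou2f1, the octamer-binding factor (0.31, edgeR adjusted P = 0.0063). Npat itself, the coactivator of the clusters, averaged 40.2 ± 0.54 CPM over the WT libraries and 37.9 ± 2.56 CPM over the KD libraries (log2 fold change -0.08, edgeR adjusted P = 0.38). Of 12 genes tested for 3′ end processing, 2 were higher and 1 lower, with a median of 0.01. Beside the share of all genes, these processing counts are not read as a change in the list. Slbp rose from 49.6 ± 0.22 to 59.6 ± 3.05 CPM (log2 fold change 0.26, edgeR adjusted P = 0.0112), as did Cstf2, a cleavage stimulation factor that also acts on polyadenylated mRNA, at 0.34. Lsm11, a subunit of the U7 particle, was lower at -0.34 (edgeR adjusted P = 0.041). The replicate block called 3 transcription genes higher, and over all genes 2539 higher and 2470 lower. Without both replicate 2 libraries edgeR called 0 genes of either list, with 3 transcription and 2 processing genes higher at an unadjusted P of 0.05.

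The calls below stand beside 12% higher and 11.9% lower over all genes tested. Of 6 genes tested for histone mRNA decay, 3 were higher, with a median of 0.19. They were Tut7, a uridyltransferase (log2 fold change 0.49), Upf1, a helicase (0.32), and Eri1, the exonuclease that trims the stem loop (0.32). Of 25 histone chaperone genes, 9 were higher, with a median of 0.12, among them Mms22l at 0.80, Chaf1b, a subunit of the assembly factor CAF-1, at 0.46 and the acetyltransferase Hat1 at 0.41. The histone genes outside the symbol patterns had 5 tested, of which 3 were higher, namely H2bu2 at 0.55, H2aw at 0.53 and Macroh2a1 at 0.40, with a median of 0.43. Without both replicate 2 libraries edgeR called 1 decay gene (Tut7), 1 of the other histone genes (H2bu2) and 0 chaperone genes, of which 10 were higher at an unadjusted P of 0.05. With all libraries and no block, no decay, chaperone or transcription gene was called lower by edgeR or DESeq2, whereas the replicate block called 1 decay gene lower, and at an unadjusted P of 0.05 the lower genes numbered 1, 1 and 0.

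Cell cycle genes moved beside the histones. Of 24 S phase genes 14 were higher in KD, with a median log2 fold change of 0.42, led by Cdc6 at 0.74, Mcm6 at 0.64 and Mcm7 at 0.62. Their summed level was 596 to 652 CPM in WT and 763 to 927 CPM in KD. Of 22 G2/M genes 10 were higher, with a median of 0.46, led by Hmgb2 at 0.80, Mki67 at 0.65 and Top2a at 0.62. Their summed level was 603 to 740 CPM in WT and 852 to 1197 CPM in KD. All S phase and all G2/M genes tested lay above 0, and none was called lower by edgeR or DESeq2 or at an unadjusted P of 0.05. Over all 13669 genes tested, the main fit called 12% higher and 11.9% lower. The replicate block called 2539 of these genes higher and 2470 lower. With that block 22 of the S phase and 20 of the G2/M genes were called higher. With both replicate 2 libraries left out 1 of each was, Mcm7 and Hmgb2, while the medians were 0.47 and 0.53 and 15 and 13 genes were higher at an unadjusted P of 0.05. That reduced fit called 135 of all genes higher and 93 lower. These are bulk libraries, in which more cells of a kind and more RNA per cell cannot be told apart.

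Among the cell type markers, those of intermediate progenitors had the largest median change. Over all genes tested, 12% were called higher and 11.9% lower. Of 6 intermediate progenitor markers 5 were higher, with a median log2 fold change of 1.16 and a summed level of 75.4 to 95.2 CPM in WT and 159 to 194 CPM in KD. Of 8 radial glia markers 2 were higher, with a median of 0.18. Neuronal markers had 1 of 8 higher and 2 lower, with a median of 0.08. Beside the share of all genes, these radial glia and neuronal counts are not read as a change. Of 5 oligodendrocyte lineage markers 2 were lower, with a median of -0.44 and a summed level of 365 to 508 CPM in WT and 314 to 411 CPM in KD. The replicate block called 2539 of all genes higher and 2470 lower. With that block the calls were 6 higher for intermediate progenitors, 4 higher for radial glia, 4 higher and 2 lower for neurons, and 4 lower for the oligodendrocyte lineage. Leaving out both replicate 2 libraries, edgeR called 2 intermediate progenitor markers higher (Insm1 and Neurog2) and 0 of the radial glia, neuronal and oligodendrocyte lineage lists, where at an unadjusted P of 0.05 there were 2 higher, 1 higher with 1 lower, and 2 lower. That reduced fit called 135 of all genes higher and 93 lower. The part of the cell cycle genes and of the cell types in the histone values was not tested.

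**Figure D5:**
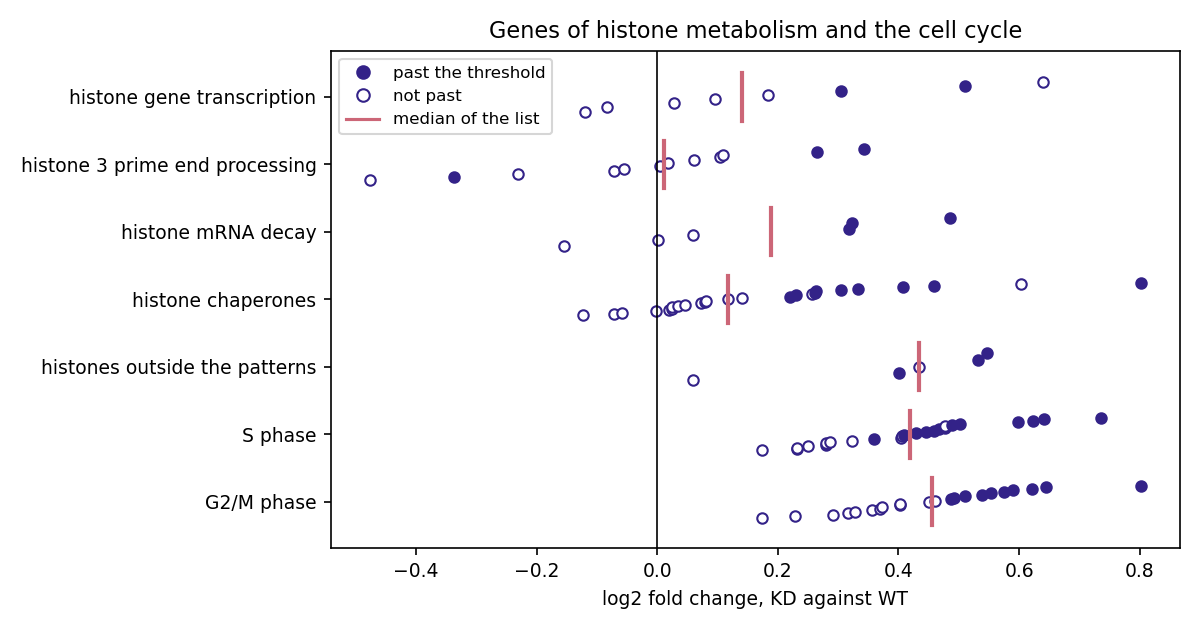
Each point is a tested gene of 1 list, placed by its log2 fold change of KD against WT, filled where its edgeR adjusted P was below 0.05, with a vertical bar at the median of the list. The medians of the S phase and G2/M lists, 0.42 and 0.46, lie to the right of those for histone gene transcription, 0.14, and 3′ end processing, 0.01.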

How the data were processed

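RNA-seq libraries of 3 WT and 3 KD samples were analysed. RNA was extracted with Trizol, mRNA was purified, and libraries were made with the Optimal Dual-mode mRNA Library Prep Kit, for which strandedness was not given in the sources used here. The authors deposited an estimated count, often not whole, and a TPM value per gene and library. The submitters' processing notes name HISAT2 2.2.1, Bowtie2 2.4.5 and RSEM 1.3.1 and the builds GRCm38 and mm10, without roles. The annotation was not given in the sources used here. Another 12 columns (FPKM and group averages) were not used.

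Rounded counts entered the quasi-likelihood test of edgeR 4.0.16, run under R 4.3.3 (TMM, filterByExpr with a minimum count of 10, quasi-likelihood F test, Benjamini-Hochberg over all genes tested, threshold 0.05). Each SE was taken from the size of the fitted log2 change over the root of its F statistic. CPM uses TMM-scaled library sizes. The design had assumed whole counts. The test was checked on simulated counts. Depth sets the precision, since 3 counts correspond to 0.180 to 0.187 CPM. P values set the difference between groups against the spread between the 3 libraries of a group. The study's methods describe these as 3 independent replicate experiments. How the mRNA was purified was not given in the sources used here.

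The members and all gene lists were chosen with earlier results of these data known. Members past the threshold are named, and in each class the gene with the highest CPM and that with the smallest adjusted P are given by library. In other lists up to 3 called genes with the largest change are named, besides Ybx1, Slbp and Npat. Deviations from the group means correlated at 0.35, 0.32 and 0.18 between libraries of the same number and at -0.28 to -0.02 between others. The numbers were therefore taken to pair the libraries in the replicate block. The main fit, with its SE, adjusted P and calls, did not use this pairing. No libraries of a group agreed within sampling noise (chi-square per degree of freedom 4.57 to 9.05). Of the marker lists not described with the results, 1 of 6 interneuron markers was higher (also without both replicate 2 libraries, and 2 higher with 1 lower under the replicate block), and of the astrocyte (3), microglia (1), endothelial (2), fibroblast and meninges (2) and erythroid (1) genes tested none was called by edgeR, by DESeq2 or at an unadjusted P of 0.05.

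Gene models, stem loops, poly(A) signals and 50-base stretches shared with other genes came from GENCODE M21 (GRCm38), promoters from RefSeq (GRCm38.p6). H2ac18, Hist1h2ao, Hist1h2ap, H1f0, H1f10, H2afj, H2afx and H3f3a overlap other annotated genes, whose reads may not be told apart. The alternatives were other scalings, filters, thresholds and tests (DESeq2 1.42.0, limma 3.58.1), TPM with a pseudocount of 1, the replicate block, whole-count members only (35 of 66) and leaving out libraries. Leaving out both replicate 2 libraries was added after the data were seen.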

Additional observations from a re-analysis of the deposited data

How the results depend on the processing

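Of the 270 values of single members under the alternatives, 239 kept direction and call, 18 lost the call, 12 gained it and 1 turned, Hist1h2ap, whose log2 fold change ran from -0.067 without KD replicate 1 to 0.50 without KD replicate 2. The number of members higher in KD was 8 to 10 and lower 0 to 1 when single libraries were left out. Without KD replicate 1 the member called lower was H2afx in place of H2afj. An adjusted P of 0.01 left 0 members lower. Without both replicate 2 libraries 3 members were higher and 0 lower, with 135 and 93 of all genes, and fewer samples entered that fit. The replicate block gave 2539 genes higher and 2470 lower and 11 members higher, adding H2ac18 and Hist1h2ao, and it changed no other member's call. Without single libraries 779 to 1612 genes were higher and 797 to 1583 lower. The values without WT replicate 2 were 779 and 797, and without KD replicate 2 they were 884 and 849. Without KD replicate 1, 1077 genes were lower. On log2(TPM + 1), 1072 genes were lower and 65.9% of calls were higher, against 50.2%, and the cause was not tested. The median of the replication-dependent members was 0.62 with no filter and 1.10 for whole-count members, with 0.83 to 0.98 without single libraries. That of the variant members was 0.28 with no filter, 0.38 on log2(TPM + 1), 0.38 without both replicate 2 libraries and 0.26 to 0.36 without single libraries. Few counts limit the 48 replication-dependent genes not tested, for which no fold change is given.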
